A study of Homo sapiens with 14 samples.

Results

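Bidirectional promoters are stretches of DNA from which a pair of neighbouring genes are transcribed away from each other, 1 on each strand. They were taken from the GENCODE 44 annotation of GRCh38/hg38, without use of any measured value. A pair was kept when both genes are protein-coding, lie on opposite strands of chromosomes 1 to 22 or X, do not overlap, and have transcription start sites (TSSs) at most 1000 bp apart. The TSS was taken as the outer end of the gene record, which can lie upstream of the Ensembl canonical transcript. The region of a pair ran from 500 bp inside one gene, across both TSSs, to 500 bp inside the other. There were 887 such regions, holding 1710 of 19970 protein-coding genes, or 8.56%. Because 63 genes belonged to more than 1 pair, the regions fell into 824 separate loci. Each pair is named with the minus-strand gene first, so LRRC41-UQCRH has LRRC41 on the minus strand. In 64 pairs a gene has no symbol and is given by its Ensembl identifier.

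KLF4 binding had been measured by chromatin immunoprecipitation and sequencing (ChIP-seq) in BEAS-2B, an established line of human bronchial epithelial cells. The 4 libraries were WT control, WT As3+, Nrf2 KO control and Nrf2 KO As3+, where As3+ is trivalent arsenic given at 1 µM for 6 h. All the cells came from CRISPR/Cas9 work with guides to the gene of Nrf2: picked colonies that had lost Nrf2 are the KO cells, and colonies that had kept it are the WT cells. Each condition has a single library, so conditions could not be tested against each other, and every interval below is an exact Clopper-Pearson 95% interval that covers counting error only. A list of peaks cannot show whether Nrf2 was lost, so the genotype could not be checked here. On these chromosomes the lists held 751 peaks in WT control, 29866 in WT As3+, 76521 in Nrf2 KO control and 130 in Nrf2 KO As3+. The lists also differed in signal: a summit had a median of 25, 10, 7 and 19 fragments over it in the same order, and the lowest local background was 1.90, 0.757, 0.491 and 1.64 fragments. For its signal maps the study sampled tags at random down to the smallest library, and the sources do not say whether peaks were called before or after that step, so these values need not reflect how deeply each library was sequenced. An absent summit does not show that KLF4 was absent, since only peaks past a threshold were listed.

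KLF4 is a zinc finger transcription factor known for binding C-rich words of the type CCACACCC or CCACGCCC and for its role in epithelial cells and in stem cells. Bidirectional promoters are known to lie mostly in CpG islands, to lack a TATA box in general, and to serve many housekeeping genes, such as those of DNA repair, mitochondria, translation and the replication-dependent histones. Nrf2 is the transcription factor of the antioxidant response. None of 13 genes of Nrf2 or KLF4 regulation that were looked for, among them NFE2L2, KEAP1, HMOX1, NQO1 and KLF4 itself, belonged to a bidirectional pair.

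The sequences below are the plus strand of GRCh38/hg38, 5′ to 3′, and are shown as examples of the pairs named further on. The first spans the summits of all 4 libraries in the only region that had a summit in each list. The next 5 are the 121 bases centred on the best summit of a pair among the first 10 of a list by −log10 p. The last 2 run from TSS to TSS of histone pairs without any summit. Capitals mark matches, on either strand, to the words searched: CCACACCC or CCACGCCC (KLF word), CCCCGCCCC (GC box), CGCGCG (CG run), TGACTCA or TGAGTCA (AP-1), CCGGAAG (ETS), GCGCATGCG (NRF1) and CCAAT. The last 3 words were added after the peak lists had been opened, and matches to different words may overlap.
LRRC41-UQCRH, chr1:46303267-46303417, within exon 1 of LRRC41: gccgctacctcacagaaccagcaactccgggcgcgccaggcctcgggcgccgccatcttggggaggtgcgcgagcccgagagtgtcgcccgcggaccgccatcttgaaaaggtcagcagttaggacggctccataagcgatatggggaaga
BRD9-TRIP13, chr5:892898-893018, WT As3+ summit: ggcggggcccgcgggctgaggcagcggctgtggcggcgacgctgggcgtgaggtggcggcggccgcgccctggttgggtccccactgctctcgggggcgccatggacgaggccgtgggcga
ITGB1BP1-CPSF3, chr2:9423283-9423403, WT As3+ summit: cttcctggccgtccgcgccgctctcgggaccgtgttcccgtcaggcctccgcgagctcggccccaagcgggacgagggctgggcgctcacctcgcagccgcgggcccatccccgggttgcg
LIPT2-POLD3, chr11:74493615-74493735, Nrf2 KO control summit: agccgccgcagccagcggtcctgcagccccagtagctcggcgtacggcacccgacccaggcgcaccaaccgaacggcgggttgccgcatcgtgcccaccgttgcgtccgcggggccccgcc
GLT8D2-HCFC2, chr12:104064358-104064478, WT As3+ summit: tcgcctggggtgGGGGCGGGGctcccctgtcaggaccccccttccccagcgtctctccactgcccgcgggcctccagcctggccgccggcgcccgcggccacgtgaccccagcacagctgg
THAP4-ATG4B, chr2:241637414-241637534, WT control summit: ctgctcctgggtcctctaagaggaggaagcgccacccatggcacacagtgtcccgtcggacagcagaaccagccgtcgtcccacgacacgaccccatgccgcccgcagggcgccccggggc
H2BC11-H2AC11, chr6:27132795-27133043, TSS to TSS: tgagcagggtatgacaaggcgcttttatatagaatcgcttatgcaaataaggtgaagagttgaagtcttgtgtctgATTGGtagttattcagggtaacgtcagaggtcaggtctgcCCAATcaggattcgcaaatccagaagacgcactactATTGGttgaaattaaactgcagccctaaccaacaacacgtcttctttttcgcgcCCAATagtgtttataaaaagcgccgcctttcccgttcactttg
H2AC14-H2BC14, chr6:27814777-27815022, TSS to TSS: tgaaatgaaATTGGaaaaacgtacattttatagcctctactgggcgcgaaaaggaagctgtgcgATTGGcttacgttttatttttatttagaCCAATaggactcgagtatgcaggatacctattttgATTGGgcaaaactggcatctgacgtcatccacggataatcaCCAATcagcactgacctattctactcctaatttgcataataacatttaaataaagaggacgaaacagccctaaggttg

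The 6 windows around summits were GC-rich, at 65.6% to 80.2% G and C, and only the GLT8D2-HCFC2 window held any of the words, a GC box. The histone stretches had 43.8% and 39.0% G and C and held 4 and 5 CCAAT words. They run from TSS to TSS and are not centred on a summit, so these GC values are of unlike windows. In 1133-bp windows around the midpoints, H2BC11-H2AC11 had 56.0%, H2AC14-H2BC14 53.6% and LRRC41-UQCRH 55.5% G and C. The other pairs with a printed summit had 61.6% to 77.0%. A match or its absence describes these letters only.

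KLF4 summits lay in most bidirectional promoters in 2 of the 4 libraries and in almost none in the other 2. A summit was present in 7 of 887 regions in WT control (0.789%, interval 0.318% to 1.62%), 556 in WT As3+ (62.7%, 59.4% to 65.9%), 631 in Nrf2 KO control (71.1%, 68.0% to 74.1%) and 1 in Nrf2 KO As3+ (0.113%, 0.00285% to 0.627%). Over all 19970 protein-coding promoters, with 1 window per gene, the same shares were 0.521%, 38.9%, 50.7% and 0.12%. In WT cells the As3+ list thus held summits in more of the pairs than the control list, and in Nrf2 KO cells in fewer. Counting each locus once gave 516 of 824 loci (62.6%) in WT As3+ and 590 (71.6%) in Nrf2 KO control.

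Bidirectional promoters held a summit more often than other protein-coding promoters in the 2 long lists. The other promoters were the 18260 genes in no pair, each with a window of 1133 bp, the length of a region with the median distance between TSSs. In WT As3+ 36.9% of them held a summit (36.2% to 37.6%), which is 25.8 percentage points under the pairs. In Nrf2 KO control the share was 48.9% (48.2% to 49.7%), or 22.2 points under the pairs. In both libraries the intervals of the pairs and of the other promoters lay apart. In WT control the other promoters stood at 0.498%, inside the interval of the pairs, and in Nrf2 KO As3+ at 0.120%, where 1 pair carries the whole share. The pairs with TSSs far apart had longer regions than the other promoters. A region also held 500 bp inside each of 2 genes, and the window of another promoter 500 bp inside 1 gene. When each TSS was instead taken on its own with 500 bp to either side, the difference was 22.4 points in WT As3+ and 18.2 points in Nrf2 KO control. Such a window still reaches into the partner gene where the TSSs are close, so the part of the window layout in these differences was not tested.

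Promoters that share their start with a long noncoding RNA came close to the protein-coding pairs. Of the other promoters, 1414 had a lncRNA TSS divergent from theirs under the same limits of distance. In WT As3+ 60.6% of these held a summit (58.0% to 63.2%), against 34.9% of the 16846 promoters without such a lncRNA. In Nrf2 KO control the shares were 72.1% (69.6% to 74.4%) and 47.0%. The intervals of protein-coding pairs and lncRNA-divergent promoters overlapped in all 4 libraries.

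**Figure D1:**
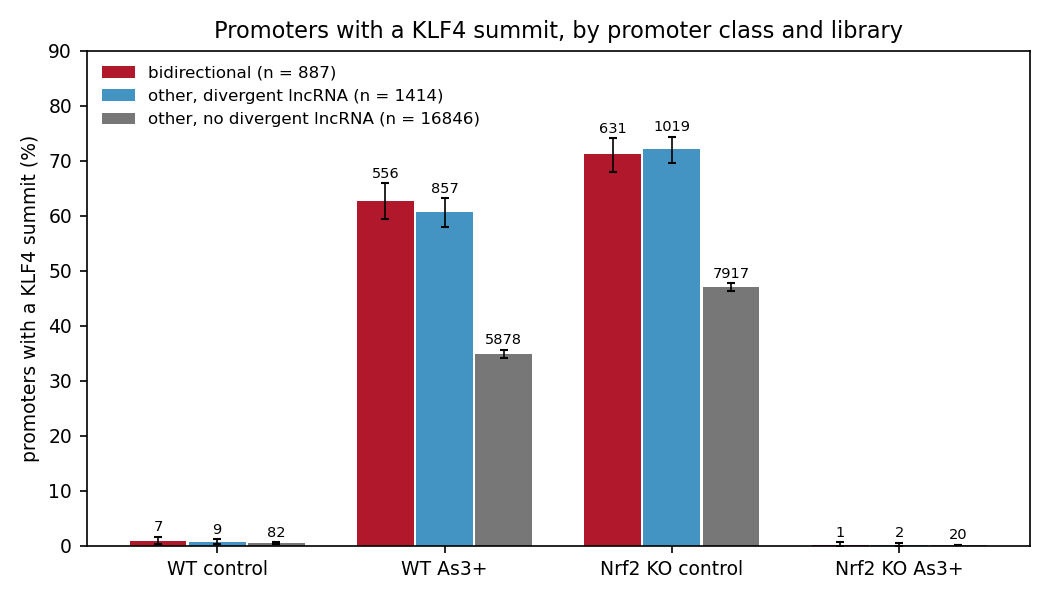
Share of promoters with a KLF4 summit (y axis, %) in each of the 4 libraries (x axis) for bidirectional promoters, other promoters with a divergent lncRNA and other promoters without one. Bars start at 0, error bars are exact 95% intervals for counting error and the numbers are promoters with a summit: the bidirectional bars stand at 62.7% and 71.1% in the 2 long lists, near the lncRNA-divergent bars at 60.6% and 72.1%.

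With only peaks of −log10 q at least 5, 310 pairs (34.9%) kept a summit in WT As3+ and 356 (40.1%) in Nrf2 KO control, where 20.1% and 26.2% of all protein-coding promoters did. The other promoters stood at 18.9% and 25.0%. At this limit 3 pairs were left in WT control and 1 in Nrf2 KO As3+.

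The 2 long lists both had a summit in 473 pairs, which is 53.3% of the pairs, 85.1% of those in WT As3+ and 75.0% of those in Nrf2 KO control. Of all protein-coding promoters 32.3% had a summit in both, which is 82.9% of those in WT As3+ and 63.7% of those in Nrf2 KO control. There were 83 pairs with a summit in WT As3+ only (9.36%, against 6.68% of all promoters), 158 in Nrf2 KO control only (17.8%, against 18.4%) and 173 in neither (19.5%, against 42.6%). At −log10 q of at least 5, 190 pairs were in both lists, or 61.3% of the pairs in WT As3+ and 53.4% of those in Nrf2 KO control, against 59.98% and 45.2% for other promoters. Within a shared pair the best summits of the 2 libraries often lay apart: the median distance between them was 176 bp, and in 167 of the 473 pairs (35.3%) they lay within 100 bp of each other.

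The 1 pair present in all 4 lists was LRRC41-UQCRH on chromosome 1, with TSSs at positions 46303616 and 46303698. LRRC41 encodes a leucine-rich repeat protein and UQCRH the hinge subunit of mitochondrial complex III. Its fold enrichment was 7.28 in WT control, 7.97 in WT As3+, 9.61 in Nrf2 KO control and 4.87 in Nrf2 KO As3+. The fold is taken here as the fragments over the summit plus 1, divided by the local background plus 1. The fragments over the summit numbered 50, 26, 23 and 29, and the −log10 q was 23.1, 14.5, 15.2 and 7.66. The fold was thus highest in Nrf2 KO control and lowest in Nrf2 KO As3+. All 4 summits lay in exon 1 of LRRC41, 219, 299, 329 and 221 bp inside the gene. The summits of the 2 short lists, WT control and Nrf2 KO As3+, lay 2 bp apart.

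Each of the 7 pairs in the WT control list also had a WT As3+ summit, and 5 of them a Nrf2 KO control summit. Among all protein-coding promoters 104 had a WT control summit, and the same overlap was not counted for them. BRD9-TRIP13, a subunit of a SWI/SNF chromatin remodelling complex paired with an ATPase of the mitotic checkpoint, had a fold of 5.33 in WT control, 13.4 in WT As3+ and 7.78 in Nrf2 KO control. Its WT control and WT As3+ summits lay 98 and 74 bp inside TRIP13, in exon 1, and the Nrf2 KO control summit 369 bp inside BRD9. THAP4-ATG4B, which includes a cysteine protease of autophagy, had folds of 3.60, 6.95 and 8.48 in these libraries. The summits lay 261 to 308 bp inside the gene record of ATG4B, in a part upstream of its canonical transcript. CAB39L-SETDB2, which includes a SET domain protein of the histone methyltransferase family, had folds of 4.12, 7.72 and 7.28. HCFC1-TMEM187, which includes a host cell factor that works with transcription factors, had 3.37, 10.5 and 8.52 and its best summits between the TSSs, which are 936 bp apart. The remaining 2 had no Nrf2 KO control summit. TRUB2-COQ4, a pseudouridine synthase and a coenzyme Q biosynthesis protein, had folds of 2.90 and 6.22 in the WT libraries, and NOSIP-PRR12 had 4.39 and 5.88. In every one of these 7 pairs the fold of the best peak was higher in WT As3+ than in WT control, but with fewer fragments over the summit in 5 of them. The best peaks of the WT libraries did not overlap in CAB39L-SETDB2 (summits at 49443923 and 49444505) or TRUB2-COQ4 (128322530 and 128322942). For those pairs the folds compare different sites.

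By −log10 p of their best peak, the first 10 pairs of WT As3+ included BRD9-TRIP13, LRRC57-HAUS2, ITGB1BP1-CPSF3, HCFC1-TMEM187, MTERF3-PTDSS1, LIG1-ZSWIM9, HESX1-APPL1, GLT8D2-HCFC2 and a pair of HAUS2 with ENSG00000285942. The 2 pairs of HAUS2 share 1 peak, at a fold of 12.2 and 37 fragments. HAUS2 is a subunit of the augmin complex of the mitotic spindle. ITGB1BP1-CPSF3, where CPSF3 is the endonuclease that cuts pre-mRNA at its 3′ end, had a fold of 11.7 in WT As3+ and 10.1 in Nrf2 KO control, and was the only pair among the first 10 of both. LIG1-ZSWIM9, which includes DNA ligase 1, stood at 10.7 and 7.81.

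The first 10 pairs of Nrf2 KO control were LIPT2-POLD3, ZSCAN32-ZNF174, ARFRP1-ENSG00000273154, DIDO1-GID8, MARF1-NDE1, TIGD1-EIF4E2, ATPAF2-GID4, TSR1-SGSM2, ITGB1BP1-CPSF3 and DTYMK-ING5. LIPT2-POLD3, a lipoyl transferase and a subunit of DNA polymerase delta, had a fold of 12.6 with 32 fragments and a −log10 q of 25.3, and no summit in any other list. The other 9 pairs had a summit in WT As3+ as well, with folds of 6.95 for ZSCAN32-ZNF174, 3.43 for DIDO1-GID8 and 7.06 for MARF1-NDE1 against 11.8, 10.5 and 11.4 in Nrf2 KO control. GID4 and GID8 are both subunits of the GID (CTLH) ubiquitin ligase. Folds in lists of unlike background are set side by side here and were not tested.

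The best rank of a peak in a pair was 29 of 751 in WT control, 163 of 29866 in WT As3+, 36 of 76521 in Nrf2 KO control and 33 of 130 in Nrf2 KO As3+. The distinct peaks with a summit in a pair numbered 607 in WT As3+, or 2.03% of that list, and 735 in Nrf2 KO control, or 0.961%. Their median fold was 4.89 in WT As3+, beside 5.10 for the peaks of other promoters, and 5.34 in Nrf2 KO control, where other promoters also stood at 5.34. Their median depth was 14 and 11 fragments. Their median width was 384 bp and 440 bp, against 380 bp and 400 bp for other promoters.

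Summits did not gather between the TSSs. The TSSs of the pairs lay 1 to 995 bp apart, with quartiles of 69, 132 and 248.5 bp. Counted per region, WT As3+ had 655 summits, of which 104 (15.9%, 13.2% to 18.9%) lay between the TSSs, a stretch that made up 16.2% of the length of those regions. In Nrf2 KO control 114 of 785 did (14.5%, 12.1% to 17.2%), against 16.0% of the length. The share of summits between the TSSs was thus near the share of length in both libraries. In WT control it was 3 of 7. On either side of the pair the summits were about evenly spread, with 322 nearer the minus-strand TSS and 333 nearer the plus-strand TSS in WT As3+, and 375 and 410 in Nrf2 KO control.

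The density of summits was highest 100 to 199 bp inside a gene. In WT As3+ there were 0.587 summits per kb between the TSSs, 0.823 in the first 100 bp of a gene, 0.896 at 100 to 199 bp, 0.654 at 200 to 299 bp, 0.378 at 300 to 399 bp and 0.352 beyond. The Nrf2 KO control densities were 0.643, 0.795, 1.09, 0.817, 0.586 and 0.491 per kb. In both libraries the stretch between the TSSs and the outermost zones thus lay below the 100 to 199 bp zone, while the zones at 0 to 99 bp and 200 to 299 bp changed places. By the Ensembl canonical transcript of the gene, 219 of the summits in WT As3+ lay in exon 1, 218 further in the transcript, and 114 in a part of the gene record upstream of that transcript. Other promoters also had their summits inside the gene, at a median of 75.5 bp downstream of the TSS in WT As3+ and 75 bp in Nrf2 KO control. Only 40.8% and 41.7% of their summits lay upstream, where 55.8% of the window was.

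**Figure D2:**
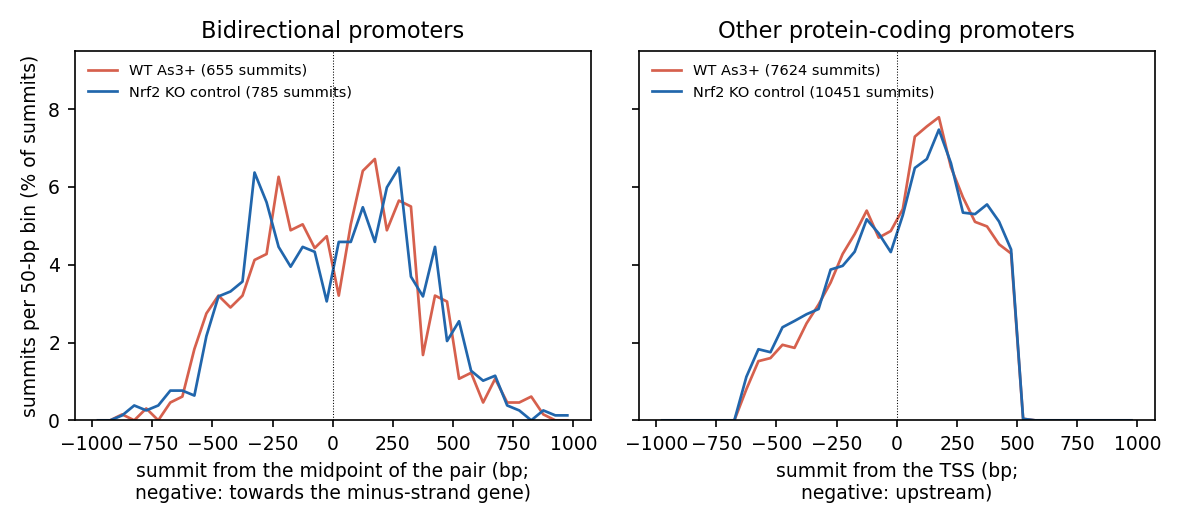
Position of KLF4 summits in 50-bp bins, as % of the summits of a library (y axis), from the midpoint between the TSSs of a pair (left, x axis in bp) and from the TSS of other promoters (right, x axis in bp, negative upstream), for WT As3+ and Nrf2 KO control. The left curves have a high point on either side of the midpoint, and the right curves have their highest point inside the gene.

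A peak often covered both starts, and some regions held a summit for each gene. The peak covered both TSSs for 28.1% of summits in WT As3+ and 31.2% in Nrf2 KO control. In WT As3+ 99 of the 556 pairs with a summit had 2 (17.8%, 14.7% to 21.2%), while 12.9% of the other promoters with a summit had 2 or more (12.1% to 13.7%). In Nrf2 KO control 150 of 631 pairs had 2 or more (23.8%, 20.5% to 27.3%), against 16.5% of the other promoters with a summit (15.7% to 17.3%). Among pairs with TSSs at most 200 bp apart, whose regions are about as long as the other windows, the shares were 43 of 368 (11.7%, 8.59% to 15.4%) in WT As3+ and 75 of 409 (18.3%, 14.7% to 22.4%) in Nrf2 KO control, with intervals that hold the shares of the other promoters. Among pairs with TSSs over 500 bp apart they were 26 of 53 (49.1%) and 24 of 58 (41.4%). Where a pair had exactly 2 summits, they lay 1 in each gene in 68 of 99 pairs in WT As3+ and in 110 of 146 in Nrf2 KO control, with a median gap of 631 and 611 bp.

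The share of pairs with a summit differed little with the distance between the TSSs, but the arrangement of peaks did. In WT As3+ the share was 60.5% for TSSs 1 to 100 bp apart, 63.6% for 101 to 200 bp, 64.8% for 201 to 300 bp, 59.6% for 301 to 500 bp and 69.7% beyond, with intervals that all overlapped. In Nrf2 KO control the shares were 67.0%, 71.1%, 78.7%, 72.3% and 76.3%, and the same held. As a share of all pairs of a distance class, those with 2 or more summits made up 7.31% in the closest class and 34.2% in the widest in WT As3+, and 11.1% and 31.6% in Nrf2 KO control. The wider regions are longer, and their part in these shares was not tested. The share of peaks over both TSSs was 41.4% in the closest class and 3.80% in the widest in WT As3+, and 50.2% and 3.53% in Nrf2 KO control.

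**Figure D3:**
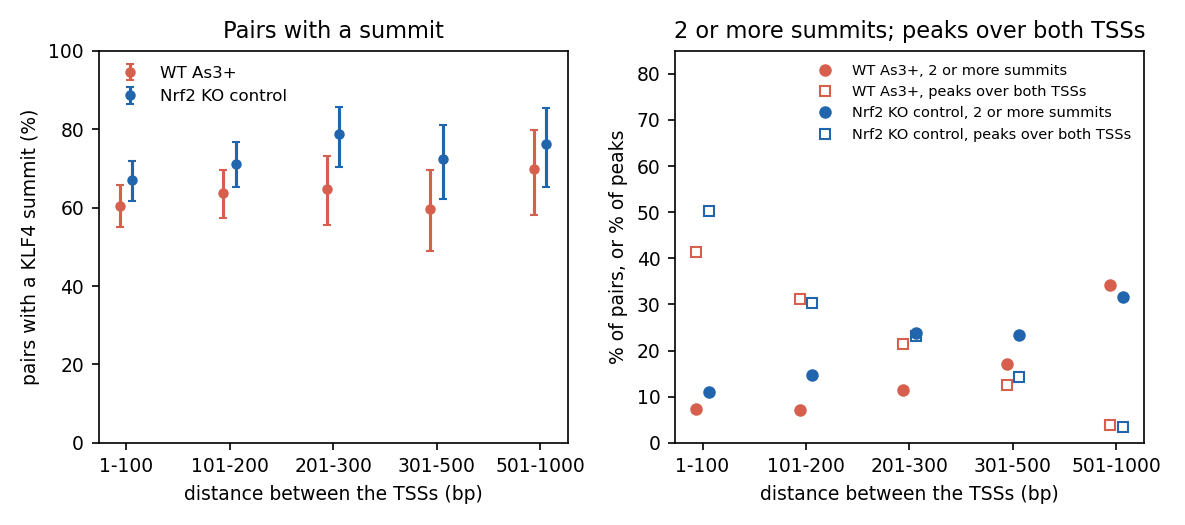
Left, share of bidirectional pairs with a KLF4 summit (y axis, %, exact 95% intervals) by distance between the TSSs (x axis, bp) in WT As3+ and Nrf2 KO control; right, share of pairs with 2 or more summits (filled circles) and share of peaks that cover both TSSs (open squares). The left points stay between 59.6% and 78.7%, while on the right the circles end higher and the squares lower at wide distances.

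The pairs were rich in G, C and CpG, and this moved with the share of promoters that held a summit. In 1133-bp windows around the pairs' midpoints the median GC content was 61.2%, against 57.6% at other promoters, and the ratio of observed to expected CpG had a median of 0.771 against 0.651. With CpG-rich defined as a ratio of at least 0.6 and a GC content of at least 50%, 88.3% of the pairs were CpG-rich and 53.2% of the other promoters. The richness was not particular to the pairs. Other promoters with a divergent lncRNA had medians of 62.9% and 0.795, and 86.6% of them were CpG-rich. Among CpG-rich promoters the shares with a summit were 66.9% (63.5% to 70.2%) for pairs and 59.6% (58.6% to 60.6%) for others in WT As3+. The Nrf2 KO control shares were 74.7% (71.5% to 77.7%) and 73.6% (72.7% to 74.5%), with overlapping intervals. Among the 104 CpG-poor pairs the shares were 30.8% (22.1% to 40.6%) in WT As3+ and 44.2% (34.5% to 54.3%) in Nrf2 KO control, against 11.1% and 20.9% of CpG-poor other promoters. CpG-rich promoters with a divergent lncRNA stood at 67.9% (65.2% to 70.5%) in WT As3+ and 78.3% (75.9% to 80.6%) in Nrf2 KO control. CpG-poor ones stood at 13.7% and 31.6%. The difference between pairs and others in Nrf2 KO control was thus 22.2 points over all windows and 1.12 points over CpG-rich ones, and in WT As3+ 25.8 and 7.34 points.

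In bins of GC content the shares ran upward in both classes up to 70% G and C. For windows of 50 to 55% the pairs stood at 26.1% in WT As3+ (18.2% to 35.3%) and the others at 22.9%. For 55 to 60% they stood at 57.9% (51.4% to 64.2%) and 41.4%, and for 65 to 70% at 84.0% (77.6% to 89.2%) and 64.3%. The same bins of Nrf2 KO control gave 36.0% and 35.5%, 66.2% and 58.2%, and 88.8% and 79.2%. With the shares of other promoters averaged over the GC bins of the pairs, the difference was 14.3 points in WT As3+ and 7.67 points in Nrf2 KO control.

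**Figure D4:**
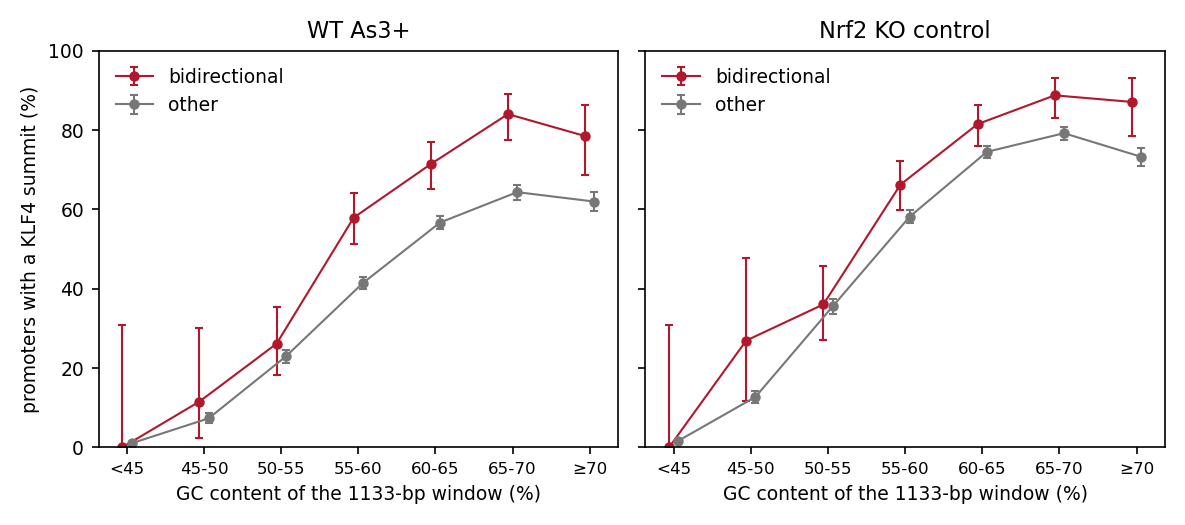
Share of promoters with a KLF4 summit (y axis, %, exact 95% intervals) by GC content of the 1133-bp window (x axis, %) for bidirectional and other protein-coding promoters in WT As3+ and Nrf2 KO control. Both classes run from near 0 below 45% G and C to their highest points at 65 to 70%, where the pairs stand at 84.0% and 88.8% and the others at 64.3% and 79.2%.

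The KLF word was as frequent in the pairs as elsewhere. It was found in 26.7% of the pairs' 1133-bp windows (23.8% to 29.8%) and in 25.9% of the windows of other promoters, as over all promoters. The GC box was found in 40.0% of the pairs and 31.6% of all promoters, the CG run in 49.6% and 36.6%, the ETS word in 40.7% and 21.5%, and the NRF1 word in 8.46% and 3.43%. AP-1 matches occurred in 8.57% of the pairs and 12.2% of all promoters, and CCAAT in 70.2% and 70.4%. ETS and NRF1 were thus the words whose share in the pairs was furthest, as a ratio, above that in all promoters.

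Pairs with a word had a summit more often for some words. In WT As3+ 73.8% of the 237 pairs with a KLF word had a summit and 58.6% of the 650 without it. Over all promoters the shares with and without it were 47.6% and 35.9%. For the CG run the pairs stood at 72.0% and 53.5% and all promoters at 60.6% and 26.5%. For the GC box the pairs stood at 70.1% and 57.7% and all promoters at 59.6% and 29.4%. For the ETS word the pairs stood at 63.7% and 62.0%, and all promoters at 55.4% and 34.4%. For CCAAT the order was the other way, at 59.9% of pairs with and 69.3% without the word, and 35.7% and 46.5% of all promoters. The Nrf2 KO control list gave 80.2% of pairs with and 67.8% without the KLF word, 81.4% and 61.1% for the CG run, 78.0% and 66.5% for the GC box, 75.9% and 67.9% for the ETS word and 69.2% and 75.8% for CCAAT. The NRF1 word went opposite ways in the 2 lists, at 72.0% with and 61.8% without it in WT As3+ and 68.0% and 71.4% in Nrf2 KO control. Within 100 bp of the distinct summits in pairs, the KLF word was found at 7.91% of 607 summits in WT As3+ (5.89% to 10.3%) and 6.26% of 735 in Nrf2 KO control (4.62% to 8.26%). At the summits of other promoters it was found at 8.65% and 7.64%, so most summits in either class had no exact KLF word near them. The GC content moved with the words: the 473 pairs with a summit in both long lists had a median of 63.5% and a CG run in 58.8%, and the 173 pairs with a summit in neither had 55.3% and 24.9%.

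The pairs of core histones had few summits. These genes encode the proteins of the nucleosome, and most of the pairs found here are an H2A and an H2B gene. None of the 15 core histone pairs had a summit in WT As3+ (0% to 21.8%). In Nrf2 KO control 5 had one (33.3%, 11.8% to 61.6%), at 4 of 13 loci. The 5 were H2BC21-H2AC20, H2AC25-H2BC26, H2BC4-H2AC6, H2AC7-H2BC7 and a pair of H2BC7 with ENSG00000282988, with folds of 4.95, 5.34, 3.43, 5.59 and 5.59. Over the promoters of all 95 genes with histone symbols, the H1 linker histones included, the shares were 8.42% and 24.2%. GC content had a median of 54.6% in the histone pairs and 61.2% in all pairs. The CCAAT words in the stretches of H2BC11-H2AC11 and H2AC14-H2BC14 printed above lie in pairs without a summit in any of the lists. Many histone genes resemble each other, and how reads were placed among them was not tested.

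The other role groups, set by gene symbol, lay nearer to the pairs as a whole. Of 47 pairs with a gene of mitochondrial ribosomes, respiratory complexes or import, 24 had a summit in WT As3+ (51.1%) and 29 in Nrf2 KO control (61.7%). Over all promoters of the same symbols the shares were close to these, at 52.4% and 59.1%. SKA3-MRPL57, with a mitochondrial ribosomal protein, had folds of 7.06 and 6.96, while TIMM8B-SDHD, an import protein and a complex II subunit, had no summit. Of 25 pairs with the symbol of a ribosomal protein, initiation factor or aminoacyl-tRNA synthetase gene, 16 and 18 had a summit (64.0% and 72.0%). All promoters of such symbols stood at 50.8% and 60.3%. The symbols also took in TUBD1-RPS6KB1 and EIF2AK3-RPIA, which hold kinase genes instead. Within this group TIGD1-EIF4E2 had folds of 5.74 and 10.3 and VPS52-RPS18 had no summit. Of 15 pairs with RNA polymerase or splicing genes, 12 had a summit in either library (80.0%, 51.9% to 95.7%). All promoters of such symbols stood at 58.0% and 63.8%, inside that interval. These pairs were led by POLR2L-TSPAN4, which holds a subunit shared by the RNA polymerases, at folds of 10.7 and 9.72.

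Pairs with symbols of DNA repair and replication genes held a summit in 10 of 28 cases in WT As3+ (35.7%, 18.6% to 55.9%) and 15 in Nrf2 KO control (53.6%, 33.9% to 72.5%). The first interval lies under the 62.7% of all pairs and holds the 46.3% of all promoters of the same gene symbols, which stood at 62.0% in Nrf2 KO control. The median GC content of these pairs was 57.3%. MCM3AP-YBEY, which entered the group by the symbol of MCM3AP alone and holds no helicase subunit, had folds of 7.60 and 8.61. TPRA1-MCM2, with a subunit of the replicative helicase, had no summit. Of 17 pairs with proteasome or ubiquitin genes 11 and 13 had a summit (64.7% and 76.5%), against 44.4% and 56.7% of all promoters of such symbols. Of 14 pairs with chaperone genes 11 and 10 had one (78.6% and 71.4%), against 52.3% and 60.5%. Among the chaperones PSPH-CCT6A, with a subunit of the cytosolic chaperonin, had folds of 6.39 and 4.50. HSPA1L-HSPA1A, with an inducible HSP70 gene, had no summit in any list. HSPA1A has a near-identical neighbour, and how reads were placed there was not tested. Of 30 pairs with zinc finger genes 20 and 22 had a summit (66.7% and 73.3%), against 44.95% and 59.1% of all promoters of such symbols. Of 12 pairs with solute carriers 8 and 10 had one (66.7% and 83.3%), against 34.9% and 48.5%. For the collagens it was 1 of 2 in either library, against 29.5% and 47.7%.

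**Figure D5:**
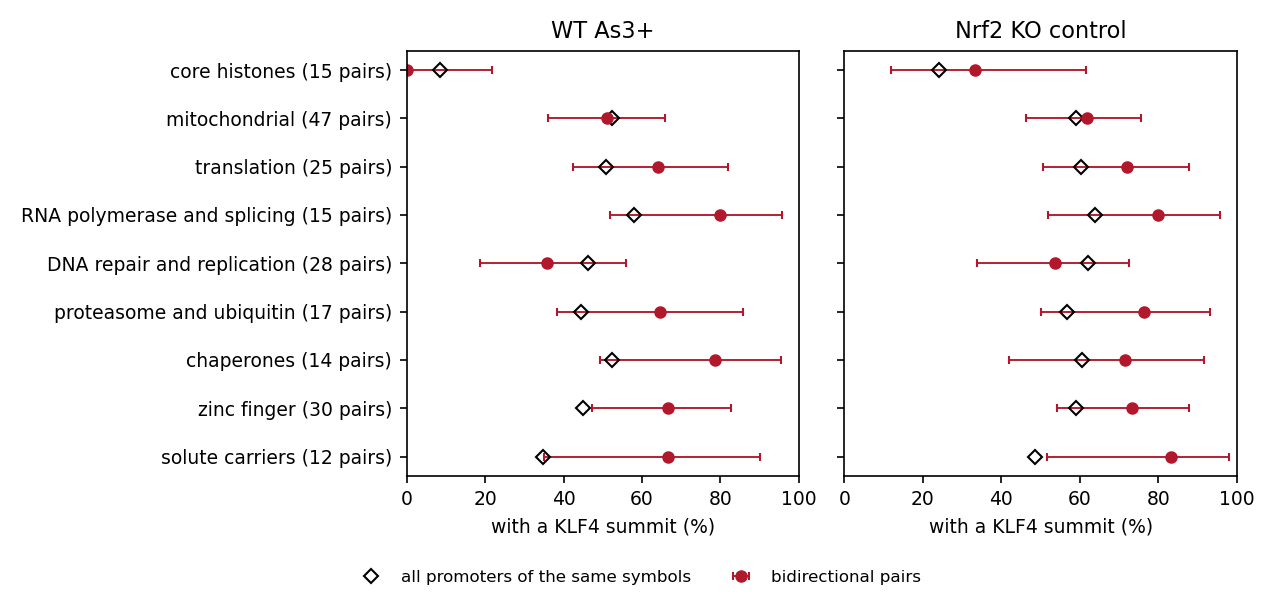
Share of bidirectional pairs with a KLF4 summit (x axis, %, filled circles with exact 95% intervals) in WT As3+ and Nrf2 KO control by role group of either gene (y axis), beside the share over all promoters of the same gene symbols (open diamonds). Core histone pairs stand lowest at 0% and 33.3%, and RNA polymerase and splicing pairs at 80.0% in both panels.

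Of 17 pairs known from textbooks or earlier work as bidirectional, 11 met the rule in this annotation. COL4A4-COL4A3, the chains of basement membrane collagen, had a fold of 7.49 in WT As3+ and 8.0 in Nrf2 KO control, while COL4A6-COL4A5 on the X chromosome had no summit. SIRT3-PSMD13, a mitochondrial deacetylase and a proteasome subunit, had folds of 5.47 and 4.45 with summits 3 bp apart. TK1-AFMID, with thymidine kinase, had 5.42 and 4.96, PDCD10-SERPINI1 4.49 and 7.65, and PPAT-PAICS, which encodes enzymes of purine synthesis, 5.05 and 4.45. PRKDC-MCM4 had a summit in Nrf2 KO control only, at a fold of 6.12, and MRE11-ANKRD49 in WT As3+ only, at 4.72. PMS2-AIMP2 and NPAT-ATM had none in any list. Of the 11 pairs, 6 had a summit in both long lists (54.5%), near the 53.3% of all pairs.

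On the X chromosome 6 of 26 pairs held a summit in WT As3+ (23.1%) and 8 of 26 in Nrf2 KO control (30.8%). The other promoters of the X chromosome stood at 18.3% and 27.5%.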

How the data were processed

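Chromatin from 4 KLF4 ChIP-seq libraries, 1 per condition, was analysed. Per the labels, the authors used BWA at its default settings on 75-nt reads, with GRCh38/hg38 as the reference, and deposited 1 peak list per library; the peak caller is not given in the sources used here. The deposited columns hold a fold enrichment (a ratio), a −log10 p, a −log10 q and a score of 10 times the −log10 q. Read totals were not used, and fragments over a summit were worked out from fold and p with a Poisson tail (largest misfit 0.000405 in −log10 p).

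GENCODE 44 (Ensembl 110) gave the genes. A region was called when a summit lay in it. Shares have exact Clopper-Pearson intervals (scipy 1.17.1) at 95%. With 1 library per condition, no test was made. GC content and words were read from the hg38 sequence (pysam 0.24.0). Pairs were named if among the first 10 of a list by −log10 p, known from textbooks or a member of a role group. These members and lists were chosen with earlier results of these data known. Pair finding, summit counting and the fragment step were tested on simulated data; the other steps were not. Alternatives were a stricter q, 1 bp of overlap, canonical TSSs, distance, GC, and the strongest peaks. Libraries of histone marks and inputs were not used here. Some pairs that the naming rule covers are not reported here.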

Additional observations from a re-analysis of the deposited data

Results flagged for a closer look

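The number of bidirectional promoters with a KLF4 summit moved in opposite directions with As3+ in the 2 genotypes. From control to As3+ it changed by 549 in WT cells, from 7 to 556, and by -630 in Nrf2 KO cells, from 631 to 1. All 19970 protein-coding promoters showed the same pattern, so it was not particular to the pairs. Their count went from 104 (0.521%) to 7777 (38.9%) in WT cells and from 10120 (50.7%) to 24 (0.12%) in Nrf2 KO cells. With 1 library per condition this difference was not tested. The lists differ in background and in length from 130 to 76521 peaks, and their part in this pattern was not tested.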

How the results depend on the processing

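No paired analysis was possible because there is 1 library per condition and the labels give no replicate numbers. Of 68 alternative values, 44 stayed within the interval of the reported one, 22 moved beyond it and 2 changed sign. For a difference, the interval used was that of the pairs' share, less the share of other promoters taken as fixed. The cause of a move was not tested.

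At −log10 q of at least 5 the share of pairs with a summit was 34.9% in WT As3+ and 40.1% in Nrf2 KO control. The difference from other promoters was 16.1 and 15.1 points, and 0.058 points in Nrf2 KO As3+, where it had been -0.00774. The share of summits between the TSSs was then 19.3%, 17.2% and, of 3 summits in WT control, 0%. With 1 bp of a peak the Nrf2 KO control share was 75.1%. With canonical TSSs there were 984 pairs, and 556 pairs were found with both kinds of TSS. Of the 984 pairs 67.2% and 77.4% had a summit. Between the TSSs lay 21.9% and 20.1% of the summits, beside 22.5% and 22.3% of the length. Each TSS on its own gave differences of 22.4 and 18.2 points, GC bins 14.3 and 7.67, and CpG-rich promoters 7.34 and 1.12; this last, counting each locus once, and leaving out other promoters that overlap a pair were chosen after seeing the data. With the strongest 130 peaks of each list the share was 0.113% in WT control, 0% in WT As3+ and 0.564% in Nrf2 KO control, and the difference was -0.120 points in WT As3+ and 0.252 in Nrf2 KO control; so few peaks leave too few summits to compare. Sequencing depth is unknown here, and an absent summit may lie under the threshold of a list.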
